A study of Mus musculus with 5 samples.

Results

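The genes described here are 40 chromatin remodeller genes of the mouse, out of 21437 genes in a table of expression levels for 5 cell lines. They were taken by symbol: the ATPases and subunits of the SWI/SNF (BAF) complexes, the CHD family, the ISWI ATPases with their BAZ partners, and the lone Snf2 family ATPases Ino80, Smarcad1 and Smarcal1. All 40 had a value in the table, and 39 reached 1 RPKM in at least 1 line. Transcript levels were measured by RNA sequencing in NIH3T3, an embryonic fibroblast line from Swiss mice, and in 4 pituitary lines from tumours of CB6F1/J mice that carried an SV40 T antigen transgene. The labels call αT1–1 an immature, αT3–1 an intermediate and LβT2 a mature gonadotrope line, with an embryonic stage for NIH3T3, αT1–1 and αT3–1, and call TαT1 a thyrotrope line and, like LβT2, of mature stage. No line was treated. NIH3T3 differs from the pituitary lines in strain and in lacking the transgene as well as in tissue, so these cannot be told apart, and each line is a single tumour-derived or fibroblast line.

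Chromatin remodellers are ATP-driven motors that slide, evict or space nucleosomes, the units in which DNA is wound around histones. In the SWI/SNF complexes a motor subunit, BRM (Smarca2) or BRG1 (Smarca4), is joined by core subunits and by exchangeable ones that define the canonical BAF, PBAF and non-canonical BAF forms. As neural precursors become neurons, subunits such as BAF53A (Actl6a), BAF45A and BAF45D (Phf10, Dpf2) and SS18 are exchanged for BAF53B (Actl6b), BAF45B and BAF45C (Dpf1, Dpf3) and CREST (Ss18l1). CHD motors carry chromodomains that read histone tails, and ISWI motors space nucleosomes evenly.

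The unit is RPKM, in which a gene's reads are divided by its length in kilobases and by the library's reads in M (mega), so levels can be compared between genes per length. There was 1 column per line and hence no spread between replicates, so no difference between lines was tested. Low values in each column were whole multiples of a step, from which the reads behind the 5 columns came out at 14.2 to 20.7 M and the reads of 38 of the 40 genes could be recovered. The 95% intervals given are exact Poisson or binomial intervals of these reads and cover counting error only. No reads were recovered for Smarcc2 and Phf10, which are given without intervals. A gene was counted as higher or lower in a line when its log2(RPKM + 1) differed by at least 1 (2-fold on that scale) and it reached 1 RPKM in either line. RPKM is a share of a library's reads: less RNA of a gene per cell and fewer cells that make it cannot be told apart. Lineage markers followed the labels in part. Cga, the hormone subunit gene that gonadotropes and thyrotropes share, was at 603 RPKM in αT3–1 and 8802 to 12968 in the other pituitary lines. Nr5a1, a gonadotrope marker, was at 265 RPKM in LβT2, 162 in αT3–1 and 0.687 in αT1–1. Pou1f1, a thyrotrope marker, was at 88.0 RPKM in TαT1 and 3.21 in αT1–1. Gnrhr, the receptor for the hypothalamic releasing hormone, was at 206 RPKM in αT3–1 and 72.3 in LβT2 and at 0 in the other 3 lines, and Tshb, the thyrotropin subunit gene, was at 58.5 RPKM in TαT1 and 0.383 or less elsewhere. Some markers of other pituitary cells were present in TαT1 as well, where Prl, the prolactin gene, was at 108 RPKM, above Tshb, and Pomc, the corticotropin precursor gene, at 5.22. Tbx19, the other corticotrope marker looked at, was at 0 in TαT1. Fshb, the follitropin subunit gene that marks mature gonadotropes, was at 0 in all 5 lines, LβT2 included, while Lhb, the lutropin subunit gene, was at 23.3 in LβT2. Of the 5 fibroblast markers, Thy1 was at 0.0405 RPKM in NIH3T3 and 191 in TαT1, while the other 4 were at 422 to 4891 RPKM in NIH3T3 and at 22.6 or less in the pituitary lines.

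Most of the remodeller genes were expressed in every line. In all 5 lines, 32 of the 40 were at 1 RPKM or more and 14 at 10 RPKM or more. Of all 21437 genes, 13401 reached 1 RPKM in some line and 8131 did so in all 5. The number of all genes at 10 RPKM or more was not computed. Over the 5 lines Smarca4 and Chd4 had the highest means (112 and 103 RPKM), though Smarcb1 was above both in NIH3T3 and Smarcb1 and Actl6a in LβT2. The 8 that missed 1 RPKM somewhere were Smarca2, Actl6b, Dpf3, Ss18l1, Chd5, Chd7, Chd9 and Smarca1. Of the 39 at 1 RPKM or more in some line, 26 had their lowest value in NIH3T3. The share of all genes that were lowest there was not computed. All genes tested also had a median log2(RPKM + 1) difference above 0 in each pituitary line, from 0.28 to 0.38. The highest value was in αT3–1 for 19 of the 39, in αT1–1 for 10 and in TαT1 for 6. It was in LβT2 for 3 and in NIH3T3 for 1 (Smarcb1). Of all 13401 genes at 1 RPKM or more in some line, 24.9% had their highest value in αT3–1, 12.2% in αT1–1, 16.9% in TαT1, 23.9% in LβT2 and 22.1% in NIH3T3. Remodeller genes are long, and among genes with a coding transcript of at least 4500 bp the share that peaked in αT3–1 was 40.4%.

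**Figure D1:**
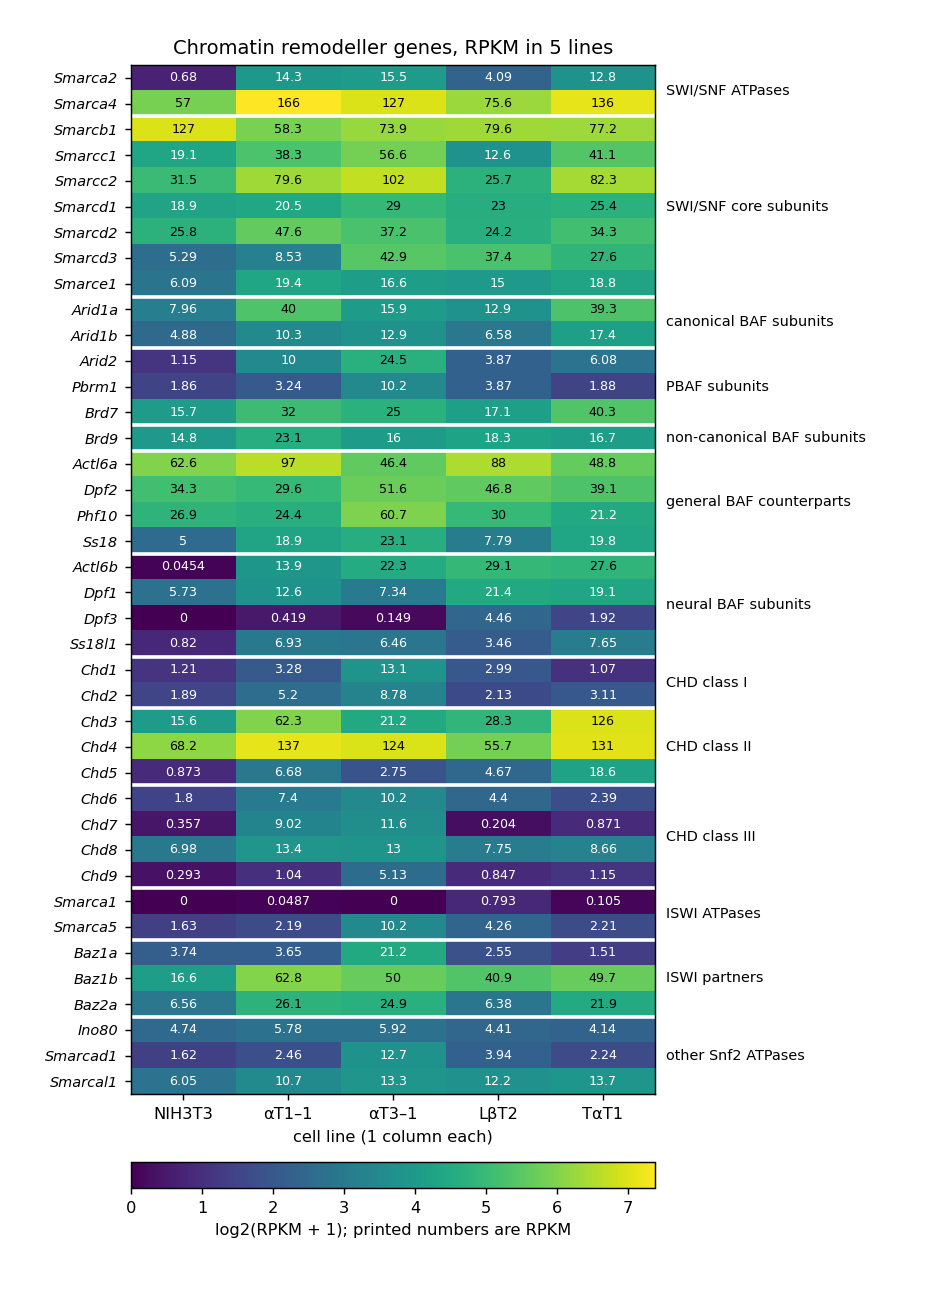
Expression of the 40 chromatin remodeller genes, grouped by complex or class (rows), in the 5 cell lines (columns), with 1 column of data per line. Colour is log2(RPKM + 1) and the printed numbers are RPKM. Smarca4 and Chd4 are high throughout, NIH3T3 is dark at Smarca2 (0.680), Actl6b (0.0454) and Dpf3 (0), and Chd7 reaches 9.02 and 11.6 only in αT1–1 and αT3–1.

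The largest ratio to the fibroblasts was that of an exchangeable BAF subunit that marks neurons. Actl6b, which encodes the neuronal actin-like subunit BAF53B (chromosome 5, 137553517 to 137569582 on GRCm38), had 29.1 RPKM in LβT2, 27.6 in TαT1, 22.3 in αT3–1, 13.9 in αT1–1 and 0.0454 in NIH3T3. The NIH3T3 value was 1 read (95% interval 0.00115 to 0.253 RPKM), and all 4 pituitary lines were at 12.6 RPKM or more even at the lower end of their intervals. LβT2 was at 643 times (95% interval 115 to 25419) the NIH3T3 level, a ratio whose width comes from that 1 read. LβT2 and TαT1 did not differ beyond counting error, at a ratio of 1.06 (0.959 to 1.17), and αT1–1 was the lowest of the 4. Its non-neuronal counterpart Actl6a (BAF53A, chromosome 3, 32706298 to 32726973) had 97.0 RPKM in αT1–1, 88.0 in LβT2, 62.6 in NIH3T3, 48.8 in TαT1 and 46.4 in αT3–1. Actl6a was thus no lower in the pituitary lines as a group than in NIH3T3: αT1–1 and LβT2 were above the fibroblasts and αT3–1 and TαT1 below. Of the summed RPKM of the pair, Actl6b made up 36.1% (34.2% to 38.0%) in TαT1, 32.4% (30.5% to 34.4%) in αT3–1 and 24.9% (23.5% to 26.3%) in LβT2, then 12.5% (11.5% to 13.6%) in αT1–1 and 0.0724% (0.00183% to 0.402%) in NIH3T3.

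The promoters of this pair, whose share differed most between the lines, and of Dpf3, the other neural gene near 0 in NIH3T3, are printed as RefSeq gives them on GRCm38.p6, 250 bases before to 50 bases after the gene start, 5′ to 3′ on the gene's strand. Capitals mark matches on either strand to the letters CCAAT of the CCAAT box, the letters GGGCGG of the GC box, the left part TCAGCACC and the right part GGACAGCGC of RE1, the element that the repressor REST binds, and the cyclic AMP response element TGACGTCA, and matches may overlap. The Actl6a window follows the RefSeq start at 32708546, which lies 2248 bases inside the GENCODE gene given above, whose first transcript begins upstream.
Actl6b (chr5:137553296-137553595, plus strand): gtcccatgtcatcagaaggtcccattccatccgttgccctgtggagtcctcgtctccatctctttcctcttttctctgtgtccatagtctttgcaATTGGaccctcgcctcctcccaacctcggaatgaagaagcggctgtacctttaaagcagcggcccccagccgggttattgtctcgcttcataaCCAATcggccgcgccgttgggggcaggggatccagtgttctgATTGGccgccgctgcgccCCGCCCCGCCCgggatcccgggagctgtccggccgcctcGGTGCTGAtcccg
Actl6a (chr3:32708296-32708595, plus strand): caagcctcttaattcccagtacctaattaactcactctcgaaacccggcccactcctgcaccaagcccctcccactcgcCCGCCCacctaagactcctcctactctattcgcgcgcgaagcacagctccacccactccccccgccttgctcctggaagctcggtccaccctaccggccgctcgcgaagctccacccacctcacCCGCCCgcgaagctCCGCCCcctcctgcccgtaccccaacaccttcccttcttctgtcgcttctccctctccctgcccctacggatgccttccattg
Dpf3 (chr12:83487687-83487986, minus strand): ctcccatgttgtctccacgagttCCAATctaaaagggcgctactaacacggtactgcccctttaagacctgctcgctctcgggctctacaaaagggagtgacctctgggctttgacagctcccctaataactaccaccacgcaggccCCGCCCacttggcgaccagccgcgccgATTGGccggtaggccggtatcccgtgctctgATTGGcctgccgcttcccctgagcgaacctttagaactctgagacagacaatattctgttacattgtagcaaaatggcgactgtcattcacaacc
The Actl6b window held 3 CCAAT boxes, 2 overlapping GC boxes and 1 match to the left part of RE1, downstream of the annotated start. Actl6a held 3 GC boxes and none of the other motifs, and Dpf3 3 CCAAT boxes and 1 GC box. Of 32851 RefSeq promoters of the same length, 37.4% held a CCAAT box, 35.7% a GC box, 1.65% the left and 0.405% the right part of RE1, and 1.79% the cyclic AMP response element. The windows of Dpf1 (chr7:29303755-29304054) and Ss18l1 (chr2:180042233-180042532) held 4 GC boxes each, with 2 CCAAT boxes in Dpf1 and none in Ss18l1. Among the 5 windows, only that of Actl6b held either part of RE1. Rest itself was at 4.10 RPKM in NIH3T3 and, in the pituitary lines, from 0.116 in αT1–1 to 0.389 in LβT2, and its part in the Actl6b values was not tested.

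The PHD finger subunits of the BAF45 family differed among the pituitary lines themselves. Dpf1 (chromosome 7, 29303951 to 29318243) had 21.4 RPKM in LβT2, 19.1 in TαT1, 12.6 in αT1–1, 7.34 in αT3–1 and 5.73 in NIH3T3, so it was transcribed in fibroblasts too and αT3–1 lay close to them. LβT2 was at 2.92 times (95% interval 2.58 to 3.31) the αT3–1 level of Dpf1. Dpf3 (chromosome 12, 83213745 to 83487716) had 4.46 RPKM in LβT2, 1.92 in TαT1, 0.419 in αT1–1, 0.149 in αT3–1 and 0 in NIH3T3. It passed 1 RPKM in LβT2 and TαT1 alone, the lines of mature stage. LβT2 was at least 27.5-fold higher than NIH3T3 with the latter set at 3 reads, and 29.9 times (95% interval 11.4 to 112) αT3–1, where 4 reads were recovered. The length at which Dpf3 gave whole reads was shorter than its annotated transcript, so its true reads may be a multiple and its intervals are then too wide. Of the general counterparts, Dpf2 (BAF45D) had 51.6 RPKM in αT3–1, 46.8 in LβT2, 39.1 in TαT1, 34.3 in NIH3T3 and 29.6 in αT1–1, a range under 2-fold. Phf10 (BAF45A, the form that belongs to PBAF) had 60.7 RPKM in αT3–1, 30.0 in LβT2, 26.9 in NIH3T3, 24.4 in αT1–1 and 21.2 in TαT1, with αT3–1 standing above the other 4. Of the summed RPKM of the 4 genes, Dpf1 and Dpf3 held 25.8% in TαT1, 25.2% in LβT2 and 19.4% in αT1–1, then 8.57% in NIH3T3 and 6.25% in αT3–1, so the order of the lines was not that of the actin-like pair: αT3–1 was next to highest there and lowest here.

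The neuronal SS18 paralog showed a smaller shift. Ss18l1 (CREST, a calcium-responsive coactivator, chromosome 2, 180042509 to 180070201) had 7.65 RPKM in TαT1, 6.93 in αT1–1 and 6.46 in αT3–1, then 3.46 in LβT2 and 0.820 in NIH3T3. Ss18, its general counterpart, was itself lowest in NIH3T3, with 23.1 RPKM in αT3–1, 19.8 in TαT1, 18.9 in αT1–1, 7.79 in LβT2 and 5.00 in NIH3T3. Both genes had a higher value in each pituitary line, though for Ss18 in LβT2 the difference of 0.55 on the log2(RPKM + 1) scale was under the limit of 1. Of the pair's sum, Ss18l1 held 30.8% (27.6% to 34.1%) in LβT2, 27.8% (25.9% to 29.9%) in TαT1 and 26.9% (25.0% to 28.9%) in αT1–1, then 21.9% (20.3% to 23.6%) in αT3–1 and 14.1% (10.6% to 18.3%) in NIH3T3. The intervals of LβT2, TαT1 and αT1–1 overlapped, and that of NIH3T3 lay below all 4 pituitary lines. Across the 3 sets, neural subunits therefore held less than the general ones in every line, at most 36.1% of a set. Of the neuronal markers chosen, Rbfox3 and Map2 have no value here. Snap25 was at 0 in NIH3T3 and at 8.07 (LβT2) to 61.8 RPKM (TαT1) in the pituitary lines. Syt1 was at 0 in NIH3T3 and LβT2 and at 3.86 to 13.6 RPKM in the other 3. Both act in regulated secretion, which endocrine cells share. Their part in the neural subunit values was not tested.

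**Figure D2:**
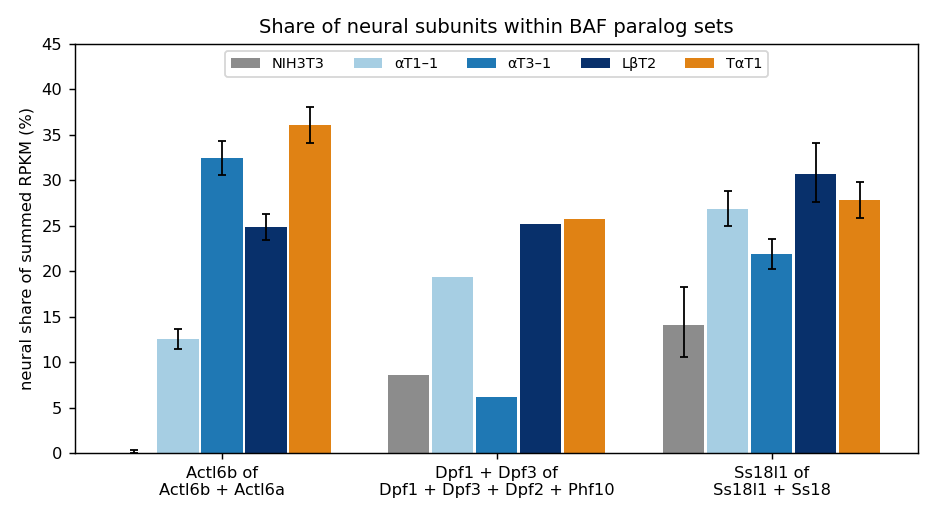
Share of the summed RPKM (vertical axis, %) held by the neural subunit or subunits within each of the 3 paralog sets (horizontal axis), in the 5 lines (bar colours). Error bars are exact binomial 95% intervals of recovered reads, and the middle set has none because no reads were recovered for Phf10. Actl6b is near 0 in NIH3T3 and reaches 36.1% in TαT1, while Dpf1 and Dpf3 stand lowest in αT3–1 (6.25%).

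Of the SWI/SNF motors, BRM set the lines apart more than BRG1. Smarca2 (chromosome 19, 26605050 to 26778322) had 15.5 RPKM in αT3–1, 14.3 in αT1–1, 12.8 in TαT1, 4.09 in LβT2 and 0.680 in NIH3T3. αT3–1 was at 22.8 times (95% interval 17.6 to 30.0) the NIH3T3 level, and 3.79 times (95% interval 3.42 to 4.20) that of LβT2, which lay between the fibroblasts and the other pituitary lines. Smarca4 (BRG1) had 166 RPKM in αT1–1, 136 in TαT1, 127 in αT3–1, 75.6 in LβT2 and 57.0 in NIH3T3. It was the more abundant motor in every line, and of the pair's sum Smarca2 held 10.9% (10.4% to 11.3%) in αT3–1, 8.58% (8.16% to 9.01%) in TαT1 and 7.96% (7.61% to 8.32%) in αT1–1, then 5.12% (4.68% to 5.60%) in LβT2 and 1.18% (0.900% to 1.52%) in NIH3T3.

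The core subunits did not follow a single order of lines. Smarcb1 (BAF47, which anchors the complex on the nucleosome) had 127 RPKM in NIH3T3, 79.6 in LβT2, 77.2 in TαT1, 73.9 in αT3–1 and 58.3 in αT1–1 and was the only gene of the 40 with its highest value in the fibroblasts. The scaffold subunits Smarcc1 and Smarcc2 shared another order. Smarcc1 (BAF155) had 56.6 RPKM in αT3–1, 41.1 in TαT1, 38.3 in αT1–1, 19.1 in NIH3T3 and 12.6 in LβT2, and αT3–1 was at 4.48 times (95% interval 4.22 to 4.76) the LβT2 level. Smarcc2 (BAF170) had 102 RPKM in αT3–1, 82.3 in TαT1, 79.6 in αT1–1, 31.5 in NIH3T3 and 25.7 in LβT2, or 3.97 times as much in αT3–1 as in LβT2. LβT2 was thus the lowest line for both, below NIH3T3, while the share of Smarcc2 in the pair stayed at 62.3% (NIH3T3) to 67.5% (αT1–1). Among the BAF60 subunits, Smarcd3 (BAF60C, known from heart and muscle development) had 42.9 RPKM in αT3–1, 37.4 in LβT2, 27.6 in TαT1, 8.53 in αT1–1 and 5.29 in NIH3T3. αT1–1 lay near the fibroblasts and the other 3 pituitary lines well above them, αT3–1 at 5.03 times (95% interval 4.44 to 5.71) the αT1–1 level. Smarcd1 was at 18.9 (NIH3T3) to 29.0 RPKM (αT3–1) and Smarcd2 at 24.2 (LβT2) to 47.6 RPKM (αT1–1), both ranges under 2-fold. As a result Smarcd3 held 44.2% of the BAF60 genes in LβT2, 39.4% in αT3–1 and 31.6% in TαT1, but 11.1% in αT1–1 and 10.6% in NIH3T3. Smarce1 (BAF57) had 19.4 RPKM in αT1–1, 18.8 in TαT1, 16.6 in αT3–1, 15.0 in LβT2 and 6.09 in NIH3T3, with all 4 pituitary lines at similar levels.

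The subunits that define the BAF and PBAF forms differed in which pituitary line was high. Arid1a (BAF250A) had 40.04 RPKM in αT1–1, 39.3 in TαT1, 15.9 in αT3–1, 12.9 in LβT2 and 7.96 in NIH3T3. αT1–1 and TαT1 did not differ beyond counting error, at a ratio of 1.02 (0.984 to 1.06), and both stood above αT3–1 and LβT2. Its paralog Arid1b had 17.4 RPKM in TαT1, 12.9 in αT3–1, 10.3 in αT1–1, 6.58 in LβT2 and 4.88 in NIH3T3, and its share of the 2 ARID1 genes ran from 20.5% in αT1–1 to 44.8% in αT3–1. Of the PBAF subunits, Arid2 (BAF200) had 24.5 RPKM in αT3–1, 10.0 in αT1–1, 6.08 in TαT1, 3.87 in LβT2 and 1.15 in NIH3T3, with αT3–1 at 21.3 times (95% interval 18.1 to 25.3) the NIH3T3 level. Pbrm1 (BAF180, which carries a row of bromodomains) had 10.2 RPKM in αT3–1, 3.87 in LβT2 and 3.24 in αT1–1, then 1.88 in TαT1 and 1.86 in NIH3T3. Both were highest in αT3–1, at 6.34 times (95% interval 5.84 to 6.89) the LβT2 level for Arid2 and 5.44 times (95% interval 4.80 to 6.19) the TαT1 level for Pbrm1. Brd7, the bromodomain subunit of PBAF, had 40.3 RPKM in TαT1, 32.0 in αT1–1 and 25.0 in αT3–1, then 17.1 in LβT2 and 15.7 in NIH3T3, highest in TαT1, and Brd9, its counterpart in non-canonical BAF, stayed between 14.8 (NIH3T3) and 23.1 RPKM (αT1–1).

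In the CHD family the 3 classes had different patterns. The class I motors, which act on actively transcribed chromatin, peaked in αT3–1. Chd1 had 13.1 RPKM in αT3–1, 3.28 in αT1–1, 2.99 in LβT2, 1.21 in NIH3T3 and 1.07 in TαT1, and αT3–1 was at 12.2 times (95% interval 10.4 to 14.4) the TαT1 level. Chd2 had 8.78 RPKM in αT3–1, 5.20 in αT1–1, 3.11 in TαT1, 2.13 in LβT2 and 1.89 in NIH3T3, and here αT3–1 was at 4.13 times (95% interval 3.68 to 4.64) the LβT2 level.

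The class II motors, which are the ATPases of the NuRD deacetylase complex, instead had TαT1 as their highest or next to highest line. Chd3 (chromosome 11, 69343273 to 69369406) had 126 RPKM in TαT1, 62.3 in αT1–1, 28.3 in LβT2, 21.2 in αT3–1 and 15.6 in NIH3T3. TαT1 was at 8.08 times (95% interval 7.68 to 8.52) the NIH3T3 level and 2.03 times (95% interval 1.98 to 2.08) that of αT1–1, the next line. Chd4, the main NuRD motor of most tissues, had 137 RPKM in αT1–1, 131 in TαT1, 124 in αT3–1, 68.2 in NIH3T3 and 55.7 in LβT2, with LβT2 and NIH3T3 below the other 3 lines. Chd5, the paralog known from neurons and testis (chromosome 4, 152338651 to 152390194), had 18.6 RPKM in TαT1, 6.68 in αT1–1, 4.67 in LβT2, 2.75 in αT3–1 and 0.873 in NIH3T3. It was highest in TαT1, at 21.3 times (95% interval 17.7 to 25.8) the NIH3T3 and 6.77 times (95% interval 6.18 to 7.43) the αT3–1 level. Chd4 was the most abundant of the 3 in every line, but Chd3 held 45.8% of their summed RPKM in TαT1, 31.9% in LβT2, 30.2% in αT1–1, 18.4% in NIH3T3 and 14.4% in αT3–1. Chd5 held 1.03% in NIH3T3 to 6.74% in TαT1.

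Class III held the widest contrast among the gonadotrope lines. Chd7, the gene mutated in human CHARGE syndrome (chromosome 4, 8690406 to 8867659), had 11.6 RPKM in αT3–1, 9.02 in αT1–1, 0.871 in TαT1, 0.357 in NIH3T3 and 0.204 in LβT2. αT1–1 and αT3–1 were high and LβT2, TαT1 and NIH3T3 were all below 1 RPKM, and the αT3–1 level was 56.6 times (95% interval 40.7 to 81.0) that of LβT2. The values rest on 1724 reads in αT1–1, 2257 in αT3–1, 36 in LβT2, 155 in TαT1 and 48 in NIH3T3. Chd6 had 10.2 RPKM in αT3–1, 7.40 in αT1–1, 4.40 in LβT2, 2.39 in TαT1 and 1.80 in NIH3T3, an order in which αT3–1 and αT1–1 again led. Chd8, which restrains Wnt target genes, ranged from 6.98 RPKM in NIH3T3 to 13.4 in αT1–1. Chd9 was low, with 5.13 RPKM in αT3–1, 1.15 in TαT1, 1.04 in αT1–1, 0.847 in LβT2 and 0.293 in NIH3T3, so αT3–1 stood above the other 4 lines, all at 1.15 RPKM or less.

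Among the ISWI genes, αT3–1 stood apart for Smarca5 and Baz1a and not for the other 3. Smarca5 (SNF2H, the ISWI motor of dividing cells) had 10.2 RPKM in αT3–1, 4.26 in LβT2, 2.21 in TαT1, 2.19 in αT1–1 and 1.63 in NIH3T3, with αT3–1 at 6.24 times (95% interval 5.11 to 7.68) the NIH3T3 level. Smarca1 (SNF2L, the motor known from neurons and gonads) had 0.793 RPKM in LβT2, 0.105 in TαT1, 0.0487 in αT1–1, 0 in NIH3T3 and 0 in αT3–1, and at 0 to 15 recovered reads it did not reach 1 RPKM in any line. The 15 reads were in LβT2 (95% interval 0.444 to 1.31 RPKM), and the 0 reads of NIH3T3 and αT3–1 allow up to 0.208 and 0.143 RPKM at 3 reads; its intervals too may be too wide, since whole reads were found at a length below the annotated one. Baz1a (ACF1, the partner that makes ACF and CHRAC, chromosome 12, 54892989 to 55014348) had 21.2 RPKM in αT3–1, 3.74 in NIH3T3, 3.65 in αT1–1, 2.55 in LβT2 and 1.51 in TαT1. It was in αT3–1 alone that Baz1a was high, at 5.82 times (95% interval 5.27 to 6.44) the αT1–1 and 14.0 times (95% interval 12.0 to 16.4) the TαT1 level. Baz1b (WSTF, deleted in human Williams syndrome) had 62.8 RPKM in αT1–1, 49.98 in αT3–1, 49.7 in TαT1, 40.9 in LβT2 and 16.6 in NIH3T3, above the fibroblasts in all 4 pituitary lines. Baz2a (TIP5, which silences ribosomal RNA genes in the complex NoRC) had 26.1 RPKM in αT1–1, 24.9 in αT3–1, 21.9 in TαT1, 6.56 in NIH3T3 and 6.38 in LβT2, so LβT2 lay with NIH3T3 and apart from the other 3.

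The lone Snf2 ATPases each had their own pattern. Smarcad1, which helps to keep heterochromatin through replication, had 12.7 RPKM in αT3–1, 3.94 in LβT2 and 2.46 in αT1–1, then 2.24 in TαT1 and 1.62 in NIH3T3, and αT3–1 was at 7.83 times (95% interval 6.48 to 9.54) the NIH3T3 level. Smarcal1, an annealing helicase at stalled replication forks, had 13.7 RPKM in TαT1, 13.3 in αT3–1, 12.2 in LβT2, 10.7 in αT1–1 and 6.05 in NIH3T3, with NIH3T3 below the 4 pituitary lines. Ino80, the motor of the INO80 complex, had 5.92 RPKM in αT3–1, 5.78 in αT1–1, 4.74 in NIH3T3, 4.41 in LβT2 and 4.14 in TαT1 and varied least of the 40, by 1.43 times (1.28 to 1.61) between its highest and lowest line. Smarcd1, Smarcd2, Brd9, Dpf2 and Chd8 were the others with less than 2-fold between lines, 6 in all, and of all genes at 1 RPKM or more in the 5 lines 17.0% were that even.

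Counted against NIH3T3, more remodeller genes were higher than lower in each pituitary line. These 4 comparisons share the NIH3T3 column and are not independent of each other. The αT1–1 line had 17 of 38 genes tested (44.7%) higher and 1, Smarcb1, lower, where 30.1% of all genes were higher and 19.1% lower. In αT3–1, 25 of 38 (65.8%) were higher and 0 lower, against 37.1% and 21.5% of all genes. LβT2 had 10 of 37 (27.0%) higher and 0 lower, against 32.5% and 17.2%, so that its share of higher genes was no larger than that of all genes. TαT1 had 20 of 38 (52.6%) higher and 0 lower, against 29.4% and 18.0%. The median difference of the genes tested on the log2(RPKM + 1) scale was 1.41 in αT3–1, 1.06 in TαT1, 0.98 in αT1–1 and 0.55 in LβT2, beside 0.38, 0.28, 0.29 and 0.37 for all genes tested. Median-of-ratios scaling lowered the medians of all genes against NIH3T3 by 0.25 to 0.34, and it left 7 higher and 1 lower in LβT2 and 17 higher and 2 lower in TαT1. Shares of all genes counted under this scaling were not computed for any comparison. The genes higher in all 4 pituitary lines were 7 (Smarca2, Smarce1, Arid2, Actl6b, Ss18l1, Chd5 and Baz1b), beside 10.5% of all genes at 1 RPKM or more in some line, and 0 were lower in all 4, beside 8.63%. Smarca2, Actl6b, Ss18l1 and Chd5 were under 1 RPKM in NIH3T3, so they entered only through a pituitary line and could not count as lower. The same holds for Dpf3, Chd7 and Chd9 in the counts of single lines. The count of 7 is therefore a description. This count depended on the setting: 3 of the 7 (Smarca2, Actl6b and Ss18l1) were left with median-of-ratios scaling and 2 (Actl6b and Baz1b) with a pseudocount of 5 and with quantile normalization; with the last, Chd5 turned from 1.00 to −0.15 in αT3–1.

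Of the neural BAF subunits, Actl6b and Ss18l1 were higher than in NIH3T3 in each pituitary line, Dpf1 in αT1–1, LβT2 and TαT1, and Dpf3 in LβT2 and TαT1. Dpf1 differed by 0.31 in αT3–1, and Dpf3, which reached 1 RPKM in neither line, by 0.50 in αT1–1 and 0.20 in αT3–1. Actl6b, Dpf3 and Ss18l1 were under 1 RPKM in NIH3T3 and could enter only through the pituitary line, so these calls are a description. Dpf1 in αT1–1 fell under the limit with median-of-ratios scaling, quantile normalization, a pseudocount of 5 and length centring. Ss18l1 did so in LβT2 with quantile normalization, that pseudocount and length centring, and in αT3–1 with quantile normalization and that pseudocount. Dpf3 did so in LβT2 and TαT1 with that pseudocount. With a minimum of 5 RPKM, Dpf3 was not counted in LβT2 or TαT1, nor Ss18l1 in LβT2. Of the 4 general counterparts only Ss18 was higher in αT1–1 and in TαT1, Ss18 and Phf10 in αT3–1, and none in LβT2. Both SWI/SNF motors were higher in αT1–1, αT3–1 and TαT1, and Smarca2 alone in LβT2, where Smarca4 differed by 0.40. Smarca4 was under the limit in αT3–1 and TαT1 with median-of-ratios scaling, and in all 3 lines when centred by length (0.59 in αT1–1, −0.29 in αT3–1 and 0.57 in TαT1). Smarca2 in LβT2 was under it with quantile normalization (0.75), with a pseudocount of 5 (0.68) and when centred (0.97).

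Among the gonadotrope lines, LβT2 was the low one. Against αT3–1, 2 of 39 genes tested (Dpf1 and Dpf3) were higher in LβT2 and 16 (41.0%) were lower, where 20.6% of all genes were higher and 21.3% lower. The 16 were Smarca2, Smarcc1, Smarcc2, Arid2, Pbrm1, Ss18, Chd1, Chd2, Chd4, Chd6, Chd7, Chd9, Smarca5, Baz1a, Baz2a and Smarcad1, from motors and scaffolds to ISWI partners. Of these, Pbrm1, Chd1, Chd2, Chd4, Chd6, Chd9, Smarca5 and Baz2a fell under the limit with length centring. Against αT1–1, 3 of 39 (Smarcd3, Actl6b and Dpf3) were higher in LβT2 and 11 (28.2%) lower, beside 20.8% and 16.2% of all genes. Of the 11, Smarca4, Arid2, Chd3 and Chd4 fell under the limit with length centring. Among genes with a coding transcript of 4500 bp or more, 10 of 23 remodeller genes (43.5%) were lower, beside 24.8% of all. Here Actl6b, at 1.02, fell under the limit with median-of-ratios scaling, quantile normalization, a pseudocount of 5 and length centring (0.72). Dpf3 fell under it with that pseudocount and was not counted with a minimum of 5 RPKM. Neither was called at 4-fold. The comparisons of LβT2 with αT3–1 and αT1–1 share its column. Between the earlier lines, αT3–1 had 9 of 38 (23.7%) higher than αT1–1 (Smarcd3, Arid2, Pbrm1, Phf10, Chd1, Chd9, Smarca5, Baz1a and Smarcad1) and 4 (10.5%) lower (Arid1a, Actl6a, Chd3 and Chd5), beside 19.3% and 12.1%, which is close to all genes in both directions.

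Fewest remodeller genes, and fewest of all genes, were counted between the thyrotrope line and αT1–1. TαT1 had 4 of 39 genes (Smarcd3, Dpf3, Chd3 and Chd5) higher and 3 (Chd1, Chd6 and Chd7) lower than αT1–1, beside 9.14% and 9.21% of all genes (8.66% and 12.6% of those with a coding transcript of 4500 bp or more), and 3 higher and 4 lower with median-of-ratios scaling. Against LβT2, 11 of 38 (28.9%) were higher in TαT1 and 0 lower, where 17.1% of all genes were higher and 20.4% lower. The 11 were Smarca2, Smarcc1, Smarcc2, Arid1a, Arid1b, Brd7, Ss18, Chd3, Chd4, Chd5 and Baz2a, which takes in all 3 NuRD motors. Against αT3–1, 5 of 39 (Arid1a, Dpf1, Dpf3, Chd3 and Chd5) were higher and 11 (28.2%) lower, beside 15.0% and 21.7% of all genes. Of all genes with a coding transcript of 4500 bp or more, 10.8% were higher and 34.5% lower in this comparison. With length centring, 6 of the 39 were higher and 9 lower, beside 14.4% and 21.2% of all genes.

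**Figure D3:**
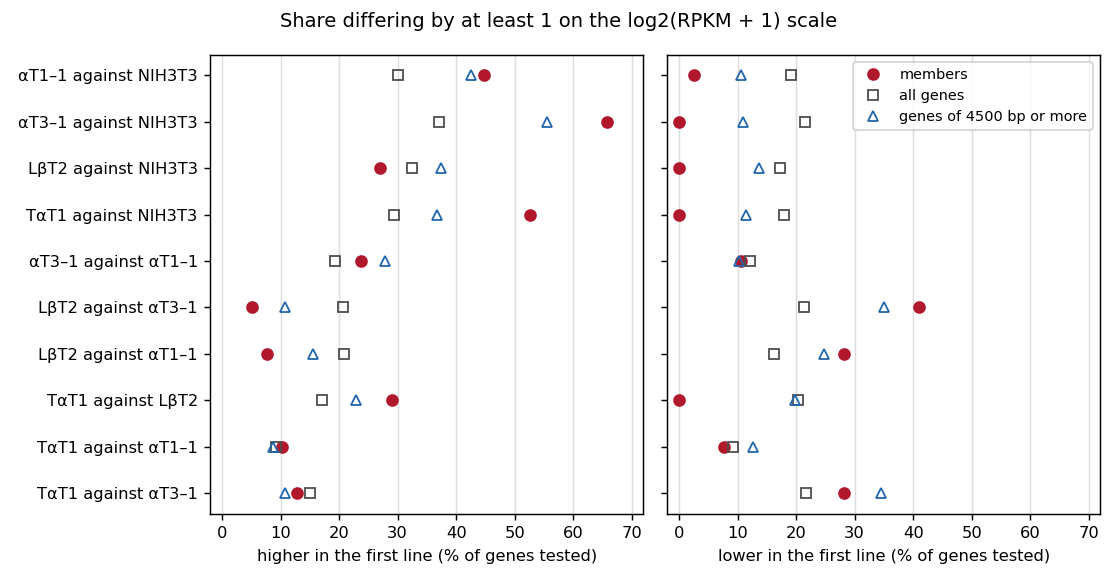
Share of genes (horizontal axes, % of genes tested) that were higher (left) or lower (right) by at least 1 on the log2(RPKM + 1) scale in the first line of each of the 10 comparisons (vertical axis). Filled circles are the remodeller genes, open squares all genes, and open triangles genes with a coding transcript of 4500 bp or more. The remodeller genes stand at 65.8% higher in αT3–1 against NIH3T3, beside 37.1% of all genes and 55.5% of long genes.

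Remodeller genes are longer than most, and differences between these lines went with transcript length over all genes. The median longest coding transcript was 5847 bp for the 40 and 3172.5 bp for expressed genes, and 60% of the 40 but 27.8% of expressed genes had one of 4500 bp or more. For αT3–1 against NIH3T3, the median difference of all genes was −0.60 for transcripts under 1500 bp and 1.72 for those of 8000 bp or more, where the 10 remodeller genes of that length had a median of 1.77. For LβT2 against αT3–1, the same medians of all genes ran from 0.70 to −0.98, and that of the 10 remodeller genes was −1.35. The cause of this trend was not tested.

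Read against genes of like length, fewer remodeller genes stood out. Of genes with a coding transcript of at least 4500 bp, 55.5% had a higher value in αT3–1 than in the fibroblasts, beside 18 of 23 remodeller genes of that length (78.3%). For αT1–1 the share was 42.5%, beside 12 of 23 (52.2%), for LβT2 37.4%, beside 4 of 21 (19.0%), and for TαT1 36.7%, beside 11 of 22. In LβT2 against αT3–1, 15 of the 23 long remodeller genes (65.2%) were lower, beside 35.1% of all long genes. All genes were then split by transcript length into 10 equal classes, and the median of a gene's class was subtracted from its difference. So centred, 9 genes were higher and 1 lower in αT1–1 against NIH3T3, beside 22.0% and 22.6% of all genes. In αT3–1 they were 14 and 1 (26.5% and 26.0%), in LβT2 4 and 2 (23.0% and 23.8%), and in TαT1 12 and 1 (22.9% and 22.2%). The same centring left 4 higher and 9 lower in LβT2 against αT3–1 (18.7% and 18.8%), 2 and 8 in LβT2 against αT1–1 (18.0% and 17.0%), and 11 and 1 in TαT1 against LβT2 (18.4% and 18.9%). Of the 7 genes higher in all 4 pituitary lines, Actl6b alone remained higher in all 4. Among the short genes, Actl6b and Smarcd3 kept differences of 4.66 and 2.98 in αT3–1 against NIH3T3, and among the long ones Smarca2 (2.22), Arid2 (2.13) and Chd7 (1.77) did. Smarca4, Arid1b and Chd5 turned to −0.29, −0.20 and −0.44 there. In LβT2 against αT3–1, Chd7 stayed lowest at −2.53, with Baz1a at −2.18.

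**Figure D4:**
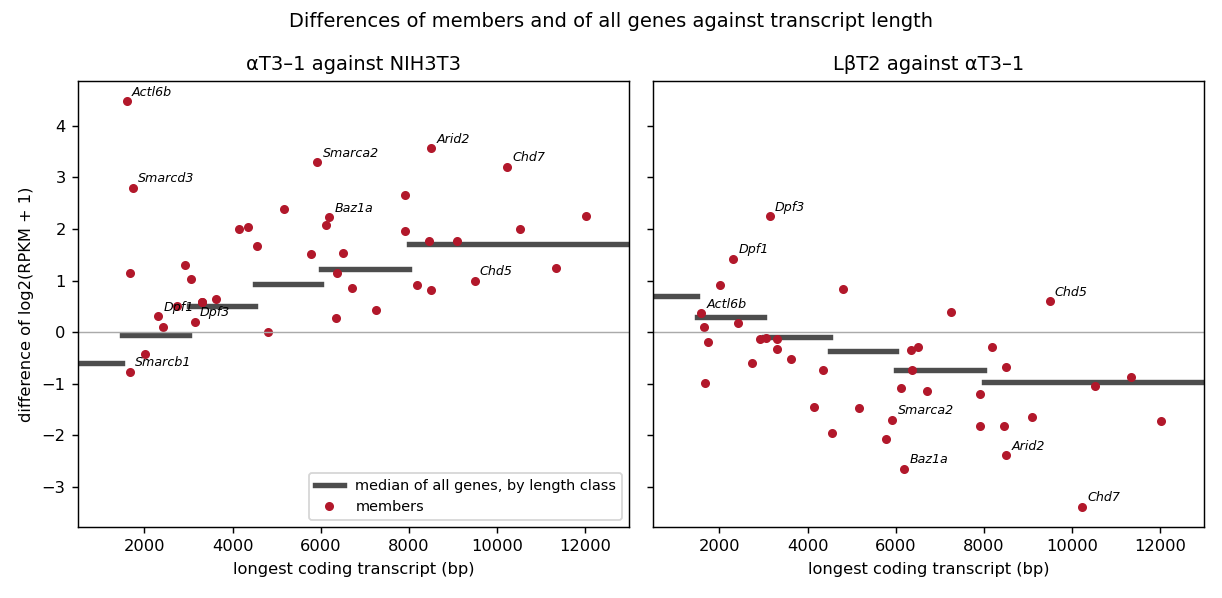
Difference of log2(RPKM + 1) (vertical axes) against the longest coding transcript in bp (horizontal axes) for αT3–1 against NIH3T3 (left) and LβT2 against αT3–1 (right). Points are remodeller genes and bars the medians of all genes in 6 length classes. The bars climb from −0.60 to 1.72 on the left and fall from 0.70 to −0.98 on the right. Actl6b and Smarcd3 lie far from the bar of their class on the left, and Chd7 does so on both sides.

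Other subunits of the same machines were lower about as often as higher against NIH3T3 and between LβT2 and the other gonadotrope lines. This did not hold between every pair of lines. A wider list of 56 genes (further BAF, NuRD, ISWI, INO80, SRCAP and TIP60 subunits and Snf2 ATPases) had 52 in the table. In αT1–1 against NIH3T3, 7 of 48 tested (14.6%) were higher and 6 (12.5%) lower, beside 30.1% and 19.1% of all genes. In αT3–1 there were 16 (31.4%) and 13 (25.5%) of 51, beside 37.1% and 21.5%. In LβT2 there were 10 (20.0%) and 7 (14.0%) of 50, beside 32.5% and 17.2%, and in TαT1 8 (17.4%) and 6 (13.0%) of 46, beside 29.4% and 18.0%. Their median differences were 0.05, 0.06, −0.08 and −0.22, below the 0.29, 0.38, 0.37 and 0.28 of all genes. In LβT2 against αT3–1, 9 of 52 (17.3%) were higher and 10 (19.2%) lower, beside 20.6% and 21.3% of all genes. In LβT2 against αT1–1, 6 of 51 (11.8%) were higher and 6 lower, beside 20.8% and 16.2%. The largest differences in αT3–1 against NIH3T3 were those of Atrx (3.13), a motor of heterochromatin, Baz2b (2.93), Bcl11a (2.71), a zinc finger BAF subunit, and Hdac2 (2.48), a deacetylase of NuRD. In αT1–1, Mta1, a NuRD subunit, had the largest difference, at −2.59, with 112 RPKM in NIH3T3, 38.4 in TαT1, 32.7 in LβT2, 29.1 in αT3–1 and 17.8 in αT1–1. Of 17 subunits of INO80, SRCAP and TIP60, 2 were higher and 7 lower in αT3–1 than in NIH3T3, beside the same 37.1% and 21.5%. All 7 of the lower ones, and 14 of the 17, have a longest coding transcript under 3000 bp, and in this comparison the median of all genes was −0.60 under 1500 bp and −0.06 from 1500 to under 3000 bp.

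Several of these values carry a limit of counting. Reads of 36 bases cannot always be placed. Of the words of that length in the longest coding transcript, 39.3% for Smarca5 and 36.8% for Smarce1 also occur in other annotated genes. Those sharing most were Gm13135 and Gm13034 for Smarca5, and Gm8494 and Smarce1-ps1 for Smarce1. How the authors counted such reads is not given in the sources used here. The kit does not mark strand, and 48.2% of the exonic bases of Smarcd3 overlap another gene (28.5% of its words are shared with Chpf2), 19.3% of those of Chd2, 12.7% of those of Smarcd1, 11.6% of those of Actl6a (its neighbour is Mrpl47) and 9.56% of those of Phf10, so reads of these genes and their neighbours cannot be told apart. Of the general BAF subunits, Actl6a shares 22.5% of its words with other genes (Mrpl47 and Gm13607 first), Phf10 20.2% and Ss18 11.9%. Actl6b, Smarcb1, Chd3, Chd7 and Baz1b share no word with another gene.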

How the data were processed

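RNA of 5 cell lines was measured. Per the labels, the authors isolated total RNA, made TruSeq v2 libraries, which select polyadenylated RNA and do not mark strand, and aligned 36 bp single-end reads with CASAVA (version not given in the sources used here). The methods give 2 libraries per line; the deposited table has 1 RPKM column per line, and how libraries were combined, which genome build and annotation they used, is not given in any source used here. The authors computed RPKM by dividing reads by gene length and library size, so RNA amount per cell does not enter. Of 21476 entries, 25 had a date for a name (0.0991% to 0.242% of summed RPKM) and were left out, and for 9 repeated symbols the entry with the higher mean was kept.

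In each column, low values came in whole multiples of a smallest step (tolerance 0.05), and from it whole reads were recovered at the smallest length of 150 to 15000 bp that gave whole reads in all 5 lines. Totals came to 14.2 M reads for NIH3T3, 18.7 M for LβT2, 18.8 M for TαT1, 20.2 M for αT1–1 and 20.7 M for αT3–1 (M, mega). Intervals are at 95%, and a value of 0 was set at a floor of 3 reads for ratios. Differences are of log2(RPKM + 1). Annotation was GENCODE M21 on GRCm38, and promoters came from RefSeq (32 of the 40 genes had an entry). The 40 genes, the wider list, the markers and the rules were chosen with earlier results of these data known. By the rule for named genes, each of the 40 is named, all motors, neural and general BAF subunits and genes called between pituitary lines or in all 4 comparisons with NIH3T3 have their values given per line, and of the wider list the 4 largest differences in a comparison described. Alternatives were other pseudocounts, minimums, fold thresholds and scalings, other share definitions and, added after the data were seen, centring by transcript length. The steps were tested on simulated data. Python 3.11.15, NumPy 2.4.6, pandas 2.3.3, SciPy 1.17.1 and matplotlib 3.10.9 were used. DNaseI and chromatin immunoprecipitation data were not analysed here.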

Additional observations from a re-analysis of the deposited data

How the results depend on the processing

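Of the 152 calls made over the 40 genes and 10 comparisons, all 152 were kept with a pseudocount of 0.1 and with no minimum, 140 with a minimum of 5 RPKM, 136 with median-of-ratios scaling, 130 with quantile normalization, 105 with a pseudocount of 5, 100 with centring by transcript length and 47 at 4-fold. In αT3–1 against NIH3T3, Smarca4 turned from 1.14 to −0.29, Arid1b from 1.24 to −0.20 and Chd5 from 1.00 to −0.44 when centred by length, and Chd5 to −0.15 with quantile normalization; the cause was not tested. Counts that moved by over 1.5 times follow. Shares of all genes were computed only for the main counts above and with centring by length. The counts under the other settings therefore cannot show whether the remodeller genes moved more than all genes did. At 4-fold, against NIH3T3, 7 genes were higher and 0 lower in αT1–1, and 13, 3 and 7 were higher in αT3–1, LβT2 and TαT1. At 4-fold, 2 and 0 were left in αT3–1 against αT1–1, 1 and 4 in LβT2 against αT3–1, 1 and 1 in LβT2 against αT1–1, 1 higher in TαT1 against LβT2, 0 and 1 in TαT1 against αT1–1, and 2 and 4 in TαT1 against αT3–1. Centring by length left 9 higher in αT1–1, 14 higher and 1 lower in αT3–1, 4 and 2 in LβT2 and 12 and 1 in TαT1 against NIH3T3, 4 and 9 in LβT2 against αT3–1, and 1 lower in TαT1 against LβT2. A pseudocount of 0.1 gave 16 higher in LβT2 and 1 lower in TαT1 against NIH3T3, and 3 lower in TαT1 against LβT2. A pseudocount of 5 gave 4 higher in LβT2 against NIH3T3, 2 lower in αT3–1 against αT1–1, 1 higher and 10 lower in LβT2 against αT3–1, 1 higher in LβT2 against αT1–1, 2 and 1 in TαT1 against αT1–1 and 3 higher in TαT1 against αT3–1. With a minimum of 5 RPKM, 5 were higher in LβT2 against NIH3T3 and 1 against αT3–1. Against NIH3T3, median-of-ratios scaling gave 1, 1 and 2 lower in αT3–1, LβT2 and TαT1, and quantile normalization 0 lower in αT1–1, 5 higher and 1 lower in LβT2 and 1 lower in TαT1. Of the 7 genes higher in all 4 pituitary lines, 3 were left with a minimum of 5 RPKM and with median-of-ratios scaling, 2 with a pseudocount of 5 and with quantile normalization, and 1 (Actl6b) at 4-fold and when centred by length; these alternatives for that count were added after the data were seen. With Dpf2 as the only counterpart, Dpf1 and Dpf3 held 35.6% in LβT2, 34.9% in TαT1, 30.5% in αT1–1, 14.3% in NIH3T3 and 12.7% in αT3–1. As shares of recovered reads, Actl6b held 10.1%, 27.4%, 20.7% and 30.7% in αT1–1, αT3–1, LβT2 and TαT1, and Ss18l1 18.8%, 34.2%, 28.4%, 38.6% and 35.3% from NIH3T3 to TαT1. With 1 column per line, no replicate could be left out. No paired analysis was possible because each line has 1 column and no result comes from a test.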

Other observations

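Of the 11 other Snf2 family ATPases in the wider list, αT1–1 was the lowest gonadotrope line for 6, LβT2 for 4 (Chd1l, Ercc6, Ttf2 and Rad54l2) and αT3–1 for 1 (Rad54l). The 4 described here are among those 6 and were picked after their values were seen. Hells, a motor needed for DNA methylation, had 22.7 RPKM in αT3–1, 22.5 in LβT2, 3.98 in NIH3T3, 3.03 in αT1–1 and 2.58 in TαT1, high in αT3–1 and LβT2 and low in the other 3 lines, with LβT2 at 7.42 times (95% interval 6.35 to 8.70) the αT1–1 level. Atrx, which deposits histone H3.3 at heterochromatin, had 12.7 RPKM in αT3–1, 5.54 in LβT2, 2.22 in TαT1, 0.960 in αT1–1 and 0.576 in NIH3T3. Zranb3, a fork-remodelling helicase, had 15.1 RPKM in LβT2, 5.39 in αT3–1 and 4.35 in αT1–1, then 2.87 in TαT1 and 2.45 in NIH3T3, with LβT2 the highest line. Btaf1, which removes TATA-binding protein from DNA, had 14.3 RPKM in αT3–1, 5.49 in LβT2, 2.90 in αT1–1, 2.83 in NIH3T3 and 1.07 in TαT1, and αT3–1 was at 13.4 times (95% interval 11.4 to 15.7) the TαT1 level.

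The zinc finger BAF subunits were each confined to few lines at 1 RPKM or more. Bcl11a had 5.56 RPKM in αT3–1, 2.52 in TαT1, 0.757 in LβT2, 0 in NIH3T3 and 0 in αT1–1. Bcl11b had 1.64 RPKM in LβT2, 0.0134 in TαT1, 0.00623 in αT1–1, 0 in NIH3T3 and 0 in αT3–1, so αT3–1 and TαT1 passed 1 RPKM for the former and LβT2 for the latter.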
